A study of Mus musculus with 14 samples.

Results

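Gstp1, Gstp2, Gstt1, Gstt2, Gstt3, Gsto1, Gstk1, Mgst1, Mgst2 and Mgst3 are the 10 glutathione S-transferase (GST) genes described here, chosen by name as members of the pi, theta, omega, kappa and microsomal classes out of 34452 mouse genes counted. All 10 had enough counts to be tested. RNA was sequenced from the RPE (retinal pigment epithelium), a layer of epithelial cells that serves the photoreceptors, in both eyes of 7 rd1 animals. These animals, an FVB/N strain without Pde6b function that loses its rods early, were at postnatal day 20. The study's methods give fewer pairs for this age than the 7 labelled here and do not say which was left out, so all 7 were used. Every eye received an adeno-associated virus (AAV) with green fluorescent protein under the human Best1 promoter, which is active in RPE, and 1 eye of each mouse also received a second AAV carrying human Nrf2 under the same promoter; these are called control and Nrf2 eyes. An effect of the Nrf2 transgene and one of the added vector, which has another capsid, cannot be told apart. RNA was purified from the solution in which cleaned eyecups had been placed, not from sorted cells.

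GSTs join the tripeptide glutathione to reactive, electrophilic compounds, which lets the cell export them. The pi, theta and omega enzymes are cytosolic, kappa sits in mitochondria and peroxisomes, and the microsomal enzymes (the Mgst genes) form a separate family of membrane proteins that share the activity but not the fold. Nrf2 is a transcription factor that binds antioxidant response elements, together with small Maf proteins, in many genes of glutathione metabolism, and it is normally held low by Keap1. The comparison asks which of these GST genes changed in the RPE when Nrf2 was overexpressed.

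Among the 10 genes the pi genes had the largest change, and they are near-copies of each other, so their sequences are given first. Gstp1 (ENSMUSG00000060803, chr19:4035407-4037985) and Gstp2 (ENSMUSG00000038155, chr19:4040285-4046023) lie side by side on the minus strand of build GRCm38. Their coding sequences, each 630 bases without the stop codon in GENCODE M21, were 98.1% identical and differed at 12 bases. The first 150 coding bases follow, with the 6 bases that differ in this stretch in capitals.
Gstp1: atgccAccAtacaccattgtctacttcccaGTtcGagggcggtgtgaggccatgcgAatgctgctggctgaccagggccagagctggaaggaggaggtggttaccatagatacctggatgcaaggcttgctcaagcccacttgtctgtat
Gstp2: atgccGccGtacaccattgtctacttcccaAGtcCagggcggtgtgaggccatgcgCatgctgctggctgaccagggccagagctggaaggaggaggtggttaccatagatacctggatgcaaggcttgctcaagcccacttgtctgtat
Of the distinct stretches of 31 bases in Gstp1 transcripts, 38.5% also occurred in Gstp2 transcripts, and 54.8% of those of Gstp2 occurred in Gstp1. A pseudogene, Gstp-ps, shared 68.1% of its 31-base stretches with Gstp1 and 78.9% with Gstp2. Reads from the shared stretches cannot be assigned to 1 locus by their sequence, whatever method made the counts, and the level of Gstp2 in particular is uncertain.

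The promoters of the pi genes and of Mgst1 are shown because an Nrf2 vector was given and these genes had the highest fold changes among the 10. RefSeq (GRCm38.p6) promoter windows, from 250 bases before to 50 bases after a start, were at hand for 9 of the 10 genes, in 11 windows, and none for Gstt2. They were searched on both strands for TGACNNNGC, the core letters of the antioxidant response element, and for the related TGAGNNNGC; these patterns do not overlap each other. The 250 bases before the start follow in the direction of the gene, with the matches in capitals.
Gstp1, chr19:4037913-4038162, minus strand: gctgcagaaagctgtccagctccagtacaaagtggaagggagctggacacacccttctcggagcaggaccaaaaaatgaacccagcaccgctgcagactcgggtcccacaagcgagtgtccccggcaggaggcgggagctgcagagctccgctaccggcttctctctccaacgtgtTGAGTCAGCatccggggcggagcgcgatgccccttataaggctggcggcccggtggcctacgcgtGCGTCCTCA
Gstp2, chr19:4042222-4042471, minus strand: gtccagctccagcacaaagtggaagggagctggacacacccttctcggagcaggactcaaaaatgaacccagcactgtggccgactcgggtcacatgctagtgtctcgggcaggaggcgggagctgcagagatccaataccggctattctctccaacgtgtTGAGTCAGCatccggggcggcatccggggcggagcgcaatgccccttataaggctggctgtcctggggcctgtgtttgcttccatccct
Mgst1, chr6:138140277-138140526, plus strand: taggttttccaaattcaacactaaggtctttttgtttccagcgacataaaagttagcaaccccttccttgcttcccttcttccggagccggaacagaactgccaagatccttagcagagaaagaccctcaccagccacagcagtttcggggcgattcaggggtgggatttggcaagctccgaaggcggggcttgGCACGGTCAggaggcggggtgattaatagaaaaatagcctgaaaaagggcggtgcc
Gstp1 and Gstp2 shared the letters TGAGTCAGC, which began 74 bases before the start in Gstp1 and 89 bases before it in Gstp2; Gstp1 held a further match, read as TGAGGACGC on the other strand. The upstream stretches of both genes were 78.1% identical over an alignment of 265 columns. Mgst1 held the only TGACNNNGC match among the members with a window, TGACCGTGC on the other strand, 56 bases before the start. Gstt1 held 1 match to TGAGNNNGC, and no match to either pattern was found in the windows of Gstt3, Gsto1, Gstk1, Mgst2 or Mgst3. TGACNNNGC occurred in 12.4% of 32851 RefSeq promoter windows, TGAGNNNGC in 17.6% and either in 27.8%, so these matches are a description of the letters and not of a bound site.

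Each library was first checked against its label. Counts per library ran from 16548349 to 50543008, and values below are CPM, counts per 1000000 of the library's total. The vector transcript, human NFE2L2, was highest in the control eyes in control 3, at 1163 CPM, and lowest in the Nrf2 eyes in Nrf2 4, also at 1163 CPM. These libraries therefore stand apart from their groups. Control 3 and Nrf2 4 were also close to each other in Gsto1 (4527 and 4492 CPM) and Gstp1 (446 and 420 CPM). Summed melanocyte markers were 7026 and 6988 CPM and skeletal muscle markers 256 and 254 CPM. Gstp2, at 24 and 7 counts, was less alike. Whether they hold the same material was not tested, and the pairs of mice 3 and 4 rest on the labels. For this reason the changes of Gstp1, Gstp2, Gstt3 and Gsto1 are also given from fits without 1 or both libraries. The 12 RPE markers checked were all detected, and their summed level ranged from 6650 to 31482 CPM in control eyes and from 14035 to 27935 CPM in Nrf2 eyes. Of the 12 RPE markers 1 passed the test, Rpe65, the visual cycle isomerase, which fell (log2 fold change −2.17, SE 0.37, adjusted p = 0.0199, edgeR), and 11 did not. The list had a median log2 fold change of −0.17, with 7 markers below 0 and 5 above 0. Of all genes tested 0.491% passed as lower. Keratins of the surface epithelium of the eye were also present in all 14 libraries, and the levels of these markers are given beside Gsto1.

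Of the 10 genes, 2 were higher in Nrf2 eyes, Gstp1 and Gstp2, none passed the test in the lower direction and 8 did not pass (paired edgeR quasi-likelihood test, adjusted p under 0.05 over 16289 genes). Of all genes tested 3.43% passed, 2.94% as higher and 0.491% as lower. At an unadjusted p under 0.05, 3 members were higher (Mgst1 besides the pi genes) and 2 were lower (Gstt2 and Gstt3), where 18.1% of all genes were under that limit in either direction. DESeq2, voom with quality weights, plain library totals and an unpaired fit without control 3 and Nrf2 4 each called 1 member lower, Gstt3, beside 3.72%, 6.17%, 1.22% and 2.29% of all genes. Within mice, 5 members were lower in at least 6 of 7 (Gstt1, Gstt2, Gstt3, Gsto1 and Mgst3), as were 19.7% of genes tested, and 3 were higher in at least 6 of 7 (Gstp1, Gstp2 and Mgst1), as were 16% of genes tested. The median log2 fold change of the 10 genes was −0.26, and that of all genes tested was −0.04. The groups overlapped in CPM for all 10 genes; 1.79% of genes tested had groups that did not overlap. With control 3 and Nrf2 4 set aside, Gstp1, Gstp2, Gstt2 and Gstt3 no longer overlapped, beside 7.1% of all genes.

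**Figure D1:**
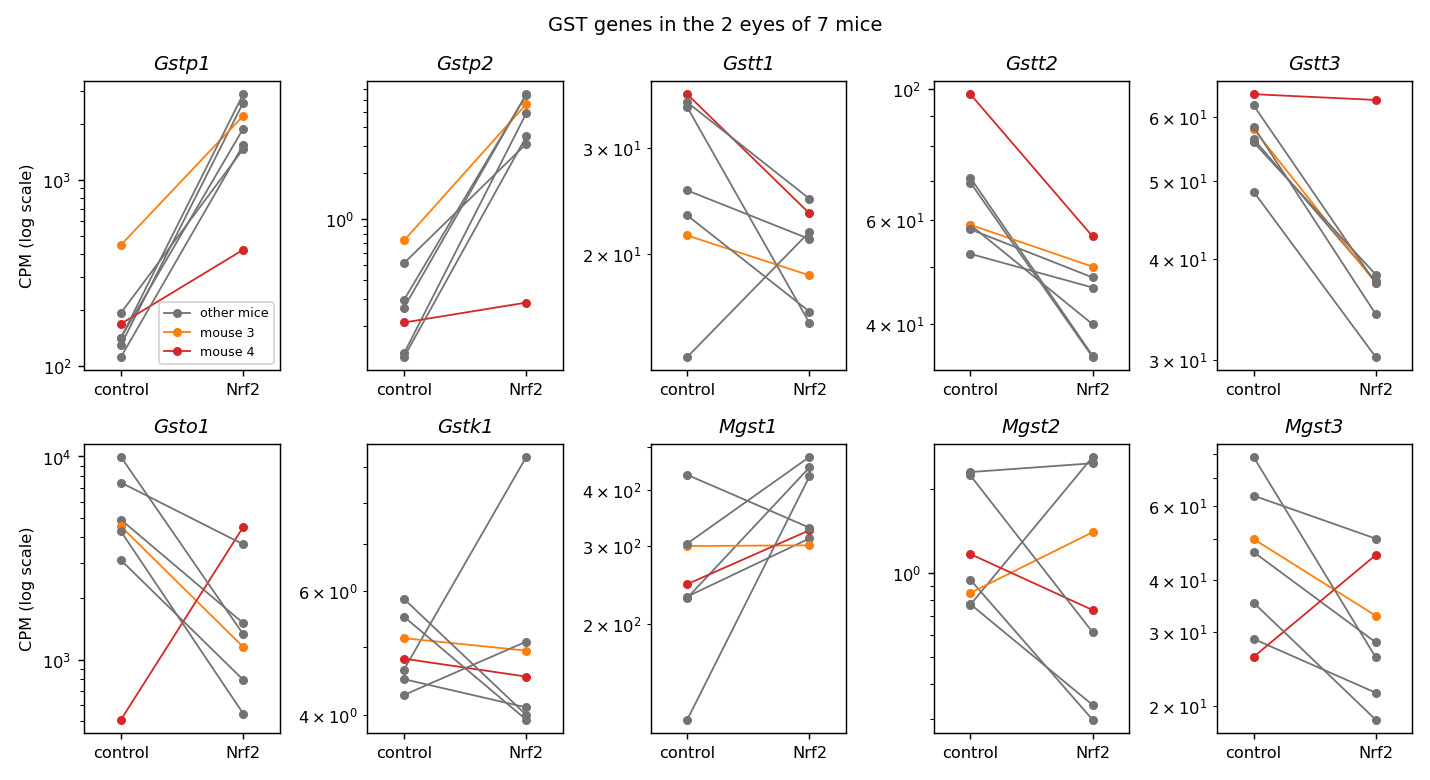
CPM (log axes with separate ranges) of each of the 10 genes in the control and the Nrf2 eye of 7 mice, with a line joining both eyes of a mouse; mouse 3 is orange and mouse 4 red. Gstp1 and Gstp2 were higher in the Nrf2 eye of every mouse, though Gstp2 in mouse 4 only by 7 counts against 6. The theta genes lay mostly lower in Nrf2 eyes, and Gsto1 and Mgst3 ran the other way in mouse 4 than in the other mice.

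Gstp1, the pi-class enzyme that conjugates many small electrophiles and is abundant in many tissues, showed the clearest change. In control eyes 1 to 7 it stood at 129, 142, 446, 168, 192, 111 and 141 CPM. In Nrf2 eyes 1 to 7 it stood at 2592, 1880, 2203, 420, 1461, 1536 and 2881 CPM. Every Nrf2 eye was above the control eye of the same mouse, and the groups overlapped only because control 3 was slightly above Nrf2 4. Gstp1 rose 10.6-fold (log2 fold change 3.40, SE 0.41, adjusted p = 0.00936, edgeR). Flipping the signs of the 7 within-mouse differences in an exact two-sided permutation test gave p = 0.0156, the smallest value that 7 mice allow. The within-mouse log2 differences ran from 1.50 in mouse 4 to 4.68 in mouse 1. Gstp1 passed the test with any 1 mouse left out, with log2 fold changes from 3.18 to 3.70. With mice 3 and 4 left out it was 3.93 (adjusted p = 0.00294, edgeR), and in the unpaired fit without control 3 and Nrf2 4 it was 4.00 (adjusted p = 2.13e-06, edgeR), where 2.97% and 6.73% of all genes were called higher. In bulk RNA such a difference may lie in the RNA per cell or in the number of cells of a type, and these cannot be told apart.

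Gstp2, which encodes a nearly identical protein, was listed at far lower counts. It had 3 to 24 counts in control eyes and 7 to 329 counts in Nrf2 eyes. The lowest, median and highest levels were 0.126, 0.265 and 0.726 CPM in control eyes and 0.286, 4.89 and 6.51 CPM in Nrf2 eyes. Nrf2 4 stood at control level, whereas the other Nrf2 eyes were all at 3.10 CPM or above, over every control eye. Gstp2 rose in all 7 mice (log2 fold change 3.75, SE 0.61, adjusted p = 0.0174, edgeR; exact sign-flip p = 0.0156). Its call was lost when mouse 1, 3, 5, 6 or 7 was left out, with log2 fold changes from 3.55 to 3.96 and adjusted p-values from 0.0519 to 0.0776. With mice 3 and 4 left out it was 4.39 (adjusted p = 0.00814, edgeR), and in the unpaired fit without control 3 and Nrf2 4 it was 4.42 (adjusted p = 3.11e-05, edgeR).

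The response of Gstp2 mostly followed that of Gstp1 in the counts. Gstp2 made up 0.0941% to 0.268% of the counts of both genes in control eyes and 0.0680% to 0.260% in Nrf2 eyes. In Nrf2 4 the share was 0.0680%, with a 95% Wilson interval, which covers counting error only, of 0.0329% to 0.140%. The within-mouse log2 differences of both genes, Gstp1 minus Gstp2, differed by −0.03 ± 0.67 (SD, n = 7; exact sign-flip p = 0.969). At the low counts of Gstp2 this depends on the prior count added before taking logs. With 0.5 in place of 2 it was −0.24 (exact sign-flip p adjusted over 7 pairs 0.766). The pseudogene Gstp-ps, named after its values were seen, was 31 to 140 counts in control eyes and 121 to 1492 counts in Nrf2 eyes (log2 fold change 3.78, SE 0.43, adjusted p = 0.00936, edgeR), again higher in all 7 mice. Summing Gstp1, Gstp2 and Gstp3, or these and Gstp-ps, into 1 row left the Gstp1 result at 3.40 on the log2 scale. Gstp3, the remaining pi gene, had at most 12 counts in a library and was not tested.

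**Figure D2:**
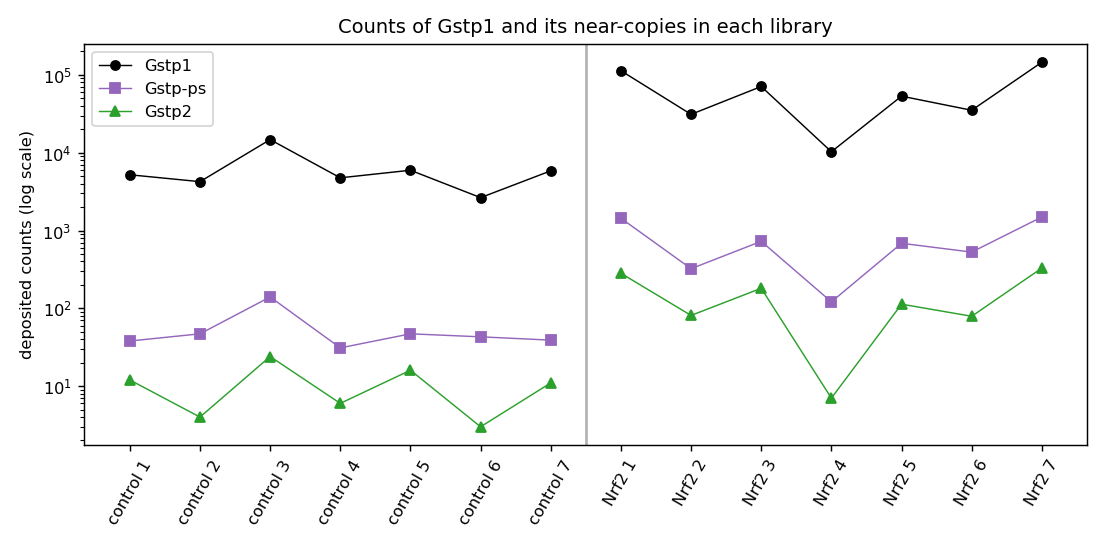
Deposited counts (log axis) of Gstp1, its pseudogene Gstp-ps and Gstp2 in each of the 14 libraries, control 1 to 7 and then Nrf2 1 to 7. The 3 loci mostly move together between libraries, with Gstp2 at 3 to 329 counts and Gstp1 at 2646 to 145629 counts. From control 4 to Nrf2 4, however, Gstp2 goes only from 6 to 7 counts, while Gstp1 goes from 4755 to 10288. Nrf2 4 is the lowest of the Nrf2 eyes in each.

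The theta genes are neighbours on the minus strand of chromosome 10 and encode GSTs that act on small halogenated compounds and hydroperoxides. Their levels lay lower in most Nrf2 eyes, but none passed the paired test. Gstt3 (chr10:75774115-75781414) stood at 48.5, 56.4, 58.1, 64.1, 55.9, 62.1 and 58.4 CPM in control eyes 1 to 7. In Nrf2 eyes 1 to 7 it stood at 30.2, 37.5, 37.4, 63.1, 38.3, 37.3 and 34.2 CPM. All Nrf2 eyes but Nrf2 4 lay below every control eye, and Nrf2 4 lay among the highest values of all. The paired log2 fold change was −0.44 (SE 0.12, adjusted p = 0.0957, edgeR; exact sign-flip p = 0.0312). Without mouse 4 Gstt3 fell by 0.54 on the log2 scale with an adjusted p of 0.0147, beside 6.25% of all genes called lower in that fit. DESeq2 gave −0.42 and an adjusted p of 0.0180, beside 3.72% called lower.

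In 7 of 7 mice Gstt2 (chr10:75831114-75837424) was lower in the Nrf2 eye, as were 2.93% of genes tested. In control eyes 1 to 7 it stood at 58.9, 70.8, 58.9, 98.0, 52.6, 57.9 and 69.5 CPM. In Nrf2 eyes 1 to 7 it stood at 39.98, 35.4, 50.04, 56.3, 46.1, 48.0 and 35.2 CPM. The only Nrf2 eye above any control eye was Nrf2 4, and control 4 was far above the other control eyes. The log2 fold change was −0.45 (SE 0.15, adjusted p = 0.163, edgeR), with an exact sign-flip p of 0.0156 that is not adjusted for the genes examined. Gstt1 (chr10:75783813-75798584) was lower in 6 of 7 mice, and its groups overlapped widely. It had a lowest, median and highest level of 13.5, 25.5 and 36.8 CPM in control eyes and of 15.3, 21.2 and 24.7 CPM in Nrf2 eyes. The paired test gave a log2 fold change of −0.26 (SE 0.17) and an adjusted p of 0.458 (edgeR). The exception for Gstt1 was mouse 6, whose control eye held the lowest level of all.

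Control 4 held the highest level of each of the 3 theta genes, and it was also the library with the highest summed RPE marker level, 31482 CPM, and the lowest summed surface epithelium level. With the level of the RPE markers as a further term in the fit, the log2 fold changes were −0.26 for Gstt1, −0.35 for Gstt2 (adjusted p = 0.0731, edgeR) and −0.42 for Gstt3 (adjusted p = 0.143, edgeR), and no call changed. The part of surface epithelium in the theta values was not tested. Gstt3 overlaps the gene Gm20441 on the same strand, which had at most 30 counts in a library. The responses of the theta genes did not differ from each other in the tests made: Gstt2 minus Gstt3 was −0.01 ± 0.47 (SD, n = 7; exact sign-flip p = 0.969) on the log2 scale, Gstt1 minus Gstt2 was 0.19 ± 0.57 and Gstt1 minus Gstt3 was 0.18 ± 0.68. Gstt1 and Gstt3 were 75.4% identical in coding sequence but shared only 7 distinct stretches of 31 bases, and Gstt2 shared none with either.

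**Figure D3:**
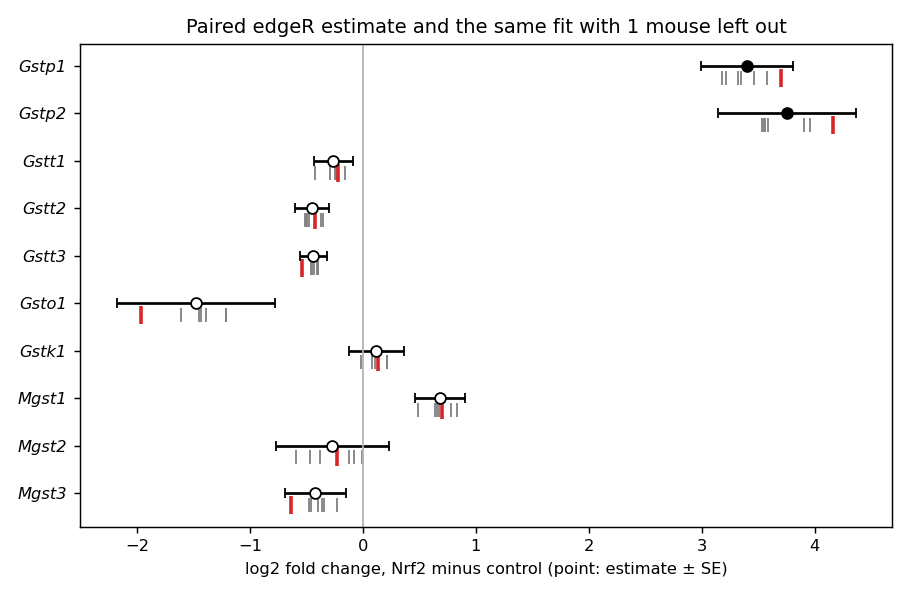
Log2 fold change, Nrf2 minus control, of the 10 genes from the paired edgeR fit (point with SE; filled where adjusted p was under 0.05) and, as ticks under each point, the same fit with 1 mouse left out (red: without mouse 4). Gstp1 and Gstp2 stand at 3.40 and 3.75, the other 8 between −1.48 and 0.68, and leaving out mouse 4 moves Gsto1 to −1.96.

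Gsto1 (ENSMUSG00000025068, chr19:47854970-47864790, plus strand) encodes an omega-class enzyme with a cysteine in its active site that acts as a thiol transferase and reduces dehydroascorbate. It was the most abundant of the 10 genes in control eyes, and its levels spanned a wide range. In control eyes 1 to 7 it stood at 3088, 4887, 4527, 505, 7440, 9955 and 4281 CPM. In Nrf2 eyes 1 to 7 it stood at 795, 1511, 1154, 4492, 3694, 1333 and 542 CPM. The Nrf2 eye was lower in mice 1, 2, 3, 5, 6 and 7, with log2 differences from −2.93 to −0.85. It was higher by 3.33 in mouse 4, where the control eye was the lowest of all. Nrf2 4, at 4492 CPM, is the library that was close to control 3, at 4527 CPM, so the size of this difference rests on its label. Control 4, at 505 CPM, was below every Nrf2 eye, the lowest of which was Nrf2 7 at 542 CPM. The log2 fold change was −1.48 (SE 0.70, adjusted p = 0.309, edgeR; exact sign-flip p = 0.172). Without mouse 4, Gsto1 fell by 1.96 on the log2 scale (SE 0.32, adjusted p = 0.00970, edgeR), and without mice 3 and 4 by 2.00 (SE 0.38, adjusted p = 0.0391, edgeR), beside 6.25% and 1.53% of all genes called lower in these fits. With only the libraries control 3 and Nrf2 4 removed, the unpaired fit gave −1.64 (adjusted p = 0.124, edgeR) and no call, and neither DESeq2 (−1.45, adjusted p = 0.0624) nor voom (−1.50, adjusted p = 0.0703) called Gsto1 with all libraries.

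The level of Gsto1 ran in step with markers of the surface epithelium of the eye, the stratified layer of cornea and conjunctiva. This list of 18 genes, among them the basal keratins Krt5 and Krt14 and the corneal keratin Krt12, was put together after the values were seen. Its summed level had a lowest, median and highest value of 2825, 27023 and 61826 CPM in control eyes and 2831, 9065 and 25812 CPM in Nrf2 eyes. All 18 markers were tested, none at 0 throughout, and all had a log2 fold change below 0, with a median of −1.18 and none past the test. Control 6 had the highest level both of Gsto1 and of the markers, and control 4 the lowest of both. In mouse 4 the summed markers were higher in the Nrf2 eye by 3.18 on the log2 scale. In the other 6 mice they were lower, with log2 differences from −2.90 to −0.60. The summed markers were at 25578 CPM in Nrf2 4 and 27023 CPM in control 3, so the size of the mouse 4 difference rests on the label of Nrf2 4. Control 4, at 2825 CPM, was just below the lowest Nrf2 eye, Nrf2 7 at 2831 CPM. The ratio of Gsto1 to the summed markers stayed between 0.161 and 0.232 in control eyes and between 0.107 and 0.191 in Nrf2 eyes, and within a mouse it was lower in the Nrf2 eye in 7 of 7 mice, with log2 differences from −0.64 to −0.00242. The part of surface epithelium in the Gsto1 difference was not tested. Gsto1 lies inside Cfap43, which runs on the opposite strand and had 4.29 to 25.1 CPM, and the amplification kit does not keep strand.

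**Figure D4:**
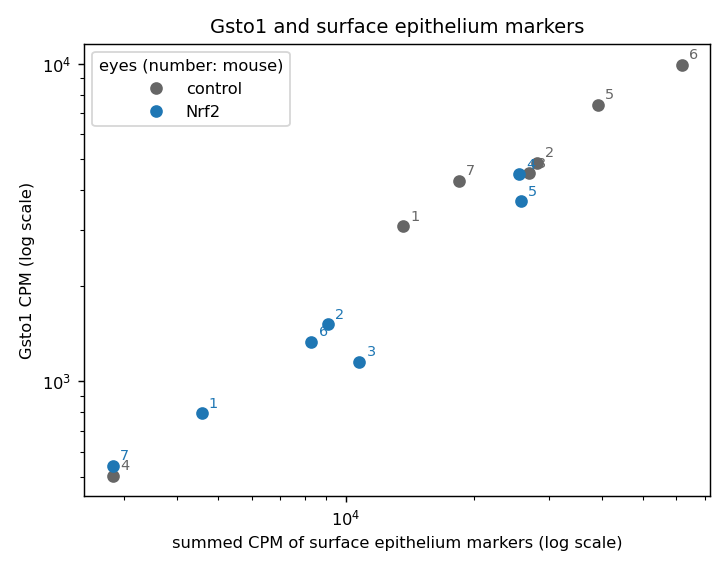
CPM of Gsto1 against the summed CPM of 18 surface epithelium markers (both axes log) in the 14 libraries, grey for control and blue for Nrf2 eyes, numbered by mouse. Both levels rise together over the libraries, from control 4 and Nrf2 7 at 505 and 542 CPM of Gsto1 to control 6 at 9955 CPM.

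Mgst3 (chr1:167371966-167393841, minus strand), a microsomal enzyme with peroxidase activity, followed a like pattern on a smaller scale. It had a lowest, median and highest level of 26.2, 46.6 and 78.6 CPM in control eyes and 18.6, 28.4 and 50.2 CPM in Nrf2 eyes. The groups overlapped widely, control 6 was the highest library and Nrf2 7 the lowest. Mgst3 was lower in 6 of 7 mice and, as for Gsto1, higher in mouse 4 (log2 fold change −0.42, SE 0.27, adjusted p = 0.443, edgeR; exact sign-flip p = 0.219). Nrf2 4 was again near control 3, at 45.9 and 50.1 CPM. The 7 libraries with the most Gsto1 were also those with the most Mgst3. The same 7 had the highest summed surface epithelium level, and its part in the Mgst3 values was not tested.

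Mgst1 (chr6:138140316-138156755, plus strand) encodes the main microsomal GST, which reduces lipid peroxides in the endoplasmic reticulum and outer mitochondrial membrane. In control eyes 1 to 7 it stood at 231, 229, 300, 246, 434, 122 and 304 CPM. In Nrf2 eyes 1 to 7 it stood at 312, 450, 301, 325, 330, 430 and 476 CPM. The Nrf2 eye was higher in 6 of 7 mice; the exception was mouse 5, and in mouse 3 both eyes were nearly level. The groups overlapped, and control 5 was above all but 2 of the Nrf2 eyes. The log2 fold change was 0.68 (SE 0.22, adjusted p = 0.145, edgeR; exact sign-flip p = 0.0469), and DESeq2 gave 0.70 with an adjusted p of 0.0279, beside 10.3% of all genes called in either direction. The summed surface epithelium level was not ordered like Mgst1: control 6, with the most, had the lowest Mgst1, but control 5, next at 39135 CPM of these markers, had the highest of the control eyes. With the RPE marker level as a further term Mgst1 was at 0.60 (adjusted p = 0.189, edgeR).

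Mgst2 and Gstk1 were scarce. Mgst2 (chr3:51660360-51682677, plus strand), which also has leukotriene C4 synthase activity, had 13 to 90 counts in a library. Within mice it was higher in 3 Nrf2 eyes and lower in 4 (log2 fold change −0.27, SE 0.50, adjusted p = 0.820, edgeR). Gstk1 (chr6:42245935-42250447, plus strand), the kappa enzyme, had 90 to 257 counts. It stood between 4.27 and 5.84 CPM in the control eyes and between 3.94 and 5.08 CPM in all Nrf2 eyes except Nrf2 2, which reached 9.31 CPM. The log2 fold change of Gstk1 was 0.12 (SE 0.24, adjusted p = 0.826, edgeR), and its direction turned to −0.02 without mouse 2 and to −0.01 when libraries were scaled by plain totals.

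No pair of microsomal genes passed a test of unequal response. Mgst1 exceeded Mgst3 by 1.10 ± 1.27 on the log2 scale (SD, n = 7; exact sign-flip p = 0.0625, adjusted over 7 pairs 0.438) and was above it in 5 of 7 mice. Mgst1 minus Mgst2 was 0.92 ± 1.63 (exact sign-flip p = 0.203), and Mgst2 minus Mgst3 was 0.18 ± 1.33 (exact sign-flip p = 0.734).

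Levels of different genes can be compared only per length, and CPM were therefore divided by the kilobases of exon of each gene. In control eyes Gsto1 led, at 2449 ± 1498 CPM per kb (SD, n = 7), far above Mgst1 at 132 ± 47.3 and Gstp1 at 123 ± 74.8. Mgst1 and Gstp1 did not differ beyond their spread. Mgst3 followed at 42.9 ± 17.4 CPM per kb, and then the theta genes Gstt1, Gstt2 and Gstt3 at 17.9 ± 5.77, 16.04 ± 3.68 and 15.01 ± 1.30, whose ranges overlapped. Gstk1 at 3.38 ± 0.387 CPM per kb, Mgst2 at 0.348 ± 0.183 and Gstp2 at 0.292 ± 0.198 closed the order, and Mgst2 and Gstp2 did not differ beyond their spread. In Nrf2 eyes Gstp1 led at 1197 ± 530 CPM per kb, with Gsto1 at 955 ± 756 within its spread and Mgst1 at 186 ± 36.7. Gstp2, at 3.89 ± 2.01 CPM per kb, then stood beside Gstk1 at 3.49 ± 1.29. With the median transcript length in place of all exon bases, 6 of the 10 genes kept their rank in each group, since Gstt2 and Gstt3 then stood above Mgst3.

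**Figure D5:**
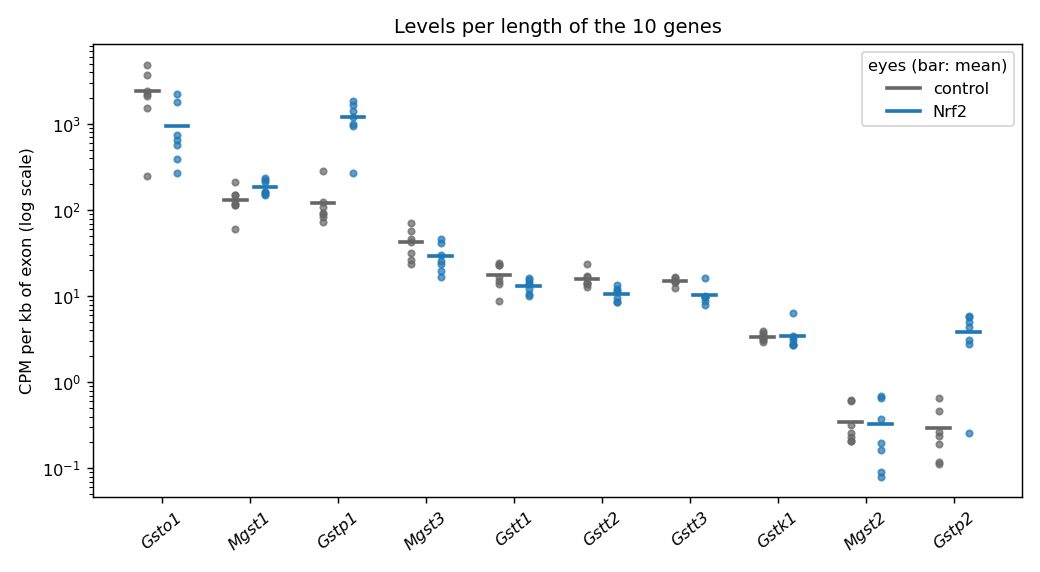
CPM per kilobase of exon (log axis) of the 10 genes in the 7 control (grey) and 7 Nrf2 eyes (blue), ordered by the control mean; points are eyes and bars are means. Gstp1 rises from 123 to 1197 CPM per kb, whereas Gsto1, at 2449 CPM per kb in control eyes, runs from 249.7 to 4921 CPM per kb in that group alone.

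Gsto1 and Gstp1 were the most abundant of the 10 genes per length in Nrf2 eyes, whereas in control eyes Gstp1 stood behind Gsto1 and Mgst1. Per length, the ratio of Gstp1 to Gsto1 was 0.0146 to 0.435 in control eyes, with a median of 0.0431. In Nrf2 eyes it was 0.122 to 6.95, with a median of 1.63. The Nrf2 eyes of mice 1, 2, 3, 6 and 7 held more Gstp1 than Gsto1 per length, and those of mice 4 and 5 held less. The ratio takes in the surface epithelium values given above for Gsto1.

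The genes whose log2 CPM ran most like those of the pi genes were sought over the 14 libraries among 12017 genes, which share the treatment and the libraries, so the likeness is a description. For Gstp1 they were Rida, an imine deaminase (Pearson r = 0.998), and Gclm, the modifier subunit of the enzyme that starts glutathione synthesis (r = 0.996). For Gstp2 they were Tbcel (r = 0.981) and Prdx6, a peroxiredoxin that uses glutathione (r = 0.980).

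Around these genes, other steps of glutathione conjugation were counted in the same test, in which 2.94% of all genes were higher and 0.491% lower. Of the 11 mu and alpha GST genes, the remaining large cytosolic classes, 9 were higher and none lower, with a median log2 fold change of 1.95; they ran from 1.30 for Gstm5 to 5.36 for Gstm1, and Gstm6 and Gsta4 did not pass. Of 10 genes that supply glutathione, 5 were higher and none lower (median 1.25), namely both subunits of glutamate cysteine ligase, Gclc (4.16) and Gclm (2.99), the synthetase Gss (2.54), the reductase Gsr (2.10) and the cystine transporter Slc7a11 (2.68). Of 19 tested genes that export or trim the conjugates, 4 were higher and none lower (median 0.31), the transporters Abcc1 (1.39), Abcc3 (2.88) and Abcc4 (2.64) and the transpeptidase Ggt5 (2.71). Of 15 tested genes of other GST classes and of the wider families, 1 was higher, Clic4 (0.56, SE 0.12, adjusted p = 0.0461, edgeR), which is close to the share of all genes, and none lower, with a median of 0.06. The median over all genes tested was −0.04. The zeta-class Gstz1 was nearly level (log2 fold change 0.06, SE 0.09, adjusted p = 0.761, edgeR), and Gsto2, the second omega gene, had 0.70 (SE 0.29, adjusted p = 0.248, edgeR). No test was made of the difference between these groups of genes and the 10 described.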

How the data were processed

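After the retina had been removed, the cleaned eyecup was placed in a solution that protects RNA. The supernatant was collected, and the RNA purified from it was amplified with a low-input kit that does not keep strand. The values the authors deposited are whole numbers per gene, not normalized, and were treated here as estimated counts. The study's methods describe alignment to mm10 with an Ensembl annotation and, for differential expression, Salmon estimates (version 0.9.1 in the submitters' processing notes) summed per gene, besides counts of aligned reads made with featureCounts; the file does not say which it holds, and only the former share reads between near-copies by a model. The labels speak of 2 sequencing runs without saying which library was in which, so no value within a run was computed. All 14 columns were mapped by their labels, and 0 columns were left over. Of 34452 mouse gene rows, 34401 matched GENCODE M21. Total counts were 16548349 to 50543008 per library, and counting error matters most for Gstp2, Mgst2 and Gstk1.

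Genes were tested with the edgeR 4.0.16 quasi-likelihood F-test (R 4.3.3) on a design of mouse plus treatment, after TMM scaling and removal of low genes (filterByExpr, minimum count 10), with Benjamini-Hochberg adjustment over 16289 genes. SE were derived from the F statistic. CPM use plain library totals; log2 differences within a mouse use TMM-scaled log2 CPM with a prior count of 2. The labels give 1 Nrf2 and 1 control library the same number. The study describes paired eyes of a mouse, so a shared number was taken as 1 animal. Deviations from the group means were correlated between both libraries of a number over all genes tested. For mice 1 to 7 the correlation was 0.00, 0.08, 0.03, −0.31, 0.30, −0.17 and 0.14. These values lie on both sides of 0 and do not show which libraries share an animal. An exact permutation test (two-sided, sign flips of the 7 within-mouse differences) was run for each member and for the difference in 7 pairs of genes of a class. Alternatives were no block for mouse, RLE, DESeq2 1.42.0, voom with quality weights (limma 3.58.1), no filter, a mean of at least 10 counts, each mouse left out, mice 3 and 4 left out, summed pi genes, a prior count of 0.5, median transcript length and a second promoter pattern; chosen after seeing the data were an unpaired fit on 12 libraries, the RPE marker level as a term, plain library totals and the pi genes summed with Gstp-ps. The fit was tested on simulated counts.

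The genes and lists were chosen with earlier results of these data known. The text names all 10 genes, genes of the fixed lists past the threshold, Rpe65 and NFE2L2, and the 2 genes with the highest Pearson r to each member past the threshold, among genes with a mean of at least 5 CPM. Gstp-ps, Gstp3, Gm20441, Cfap43, Gstm6, Gsta4, Gstz1, Gsto2 and the surface epithelium markers were named after their values were seen. Other marker lists were made for rods, cones, inner retina, Müller glia, endothelium, immune cells, fibroblasts, melanocytes, skeletal muscle and blood.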

Additional observations from a re-analysis of the deposited data

Results flagged for a closer look

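Values that stood apart from the other 6 of their group by Dixon's criterion were sought in 36 groups of values, of which chance flags about 1 in 20 (1.8 here), and 8 were found. In control eyes the high values were Gstp1 in control 3, at 446 CPM, the vector transcript NFE2L2 in the same library, at 1163 CPM, and Gstt2 in control 4, at 98.0 CPM. The ratio of Gstp1 to Gsto1 per length was also high in control 4, at 0.435. In Nrf2 eyes Gstt3 was high in Nrf2 4, at 63.1 CPM, the share of Gstp2 in the counts of Gstp1 and Gstp2 was low in Nrf2 4, at 0.0680%, and Gstk1 was high in Nrf2 2, at 9.31 CPM. Among the within-mouse differences, that of Gsto1 in mouse 4 stood apart, at 3.33 on the log2 scale.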

How the results depend on the processing

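Gstp1 kept its direction and its call in every alternative run, with log2 fold changes of 3.18 to 3.70 when 1 mouse was left out. Without the replicate block, that is without the pairing by mouse, 1100 genes differed in place of 559, with no member gaining or losing its call. The number of genes differing was also 1901 with DESeq2, 2590 with voom and quality weights, 347 with no filter, 1476 in the unpaired fit on 12 libraries and between 111 and 1998 with 1 mouse left out (the highest without mouse 4). With plain library totals 314 genes were higher and 198 lower, against 479 and 80, and the median of all genes moved from −0.04 to −0.17. Members past the test in the lower direction numbered 1 with DESeq2, voom, plain totals, the 12-library fit and mice 3 and 4 left out, and 0 to 2 with 1 mouse left out; those in the higher direction numbered 1 to 2 with 1 mouse left out. Gstt3 passed with DESeq2 (−0.42), voom (−0.45), plain totals (−0.57) and 12 libraries (−0.53), and ranged from −0.54 to −0.40 with 1 mouse left out. Mgst1 passed with DESeq2 (0.70). Gsto1 passed with mice 3 and 4 left out (−2.0) and ranged from −1.96 to −1.21 with 1 mouse left out, and Gstp2 from 3.53 to 4.16. Gstk1 turned to −0.01 with plain totals and ranged from −0.02 to 0.21 with 1 mouse left out; Mgst2 turned to 0.02 in the 12-library fit. With 1 mouse left out the difference in response ranged from −0.21 to 0.12 for Gstp1 minus Gstp2, −0.09 to 0.12 for Gstt2 minus Gstt3 (0.07 with mice 3 and 4 left out), −0.02 to 0.32 for Gstt1 minus Gstt3 and −0.19 to 0.45 for Mgst2 minus Mgst3. With median transcript lengths 6 genes kept their rank per length in control eyes and 6 in Nrf2 eyes. With TGAGNNNGC added, 4 members held a promoter match. The causes of these changes were not tested. With mice 3 and 4 left out and in the 12-library fit, Gstp1 was 3.93 and 4.00 and Gstp2 4.39 and 4.42, all called. Mgst2 had 13 to 90 counts in a library.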

Other observations

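The genes most like 5 of the members that did not pass the test, outside the rule for named genes, were described in the same way over the 14 libraries. Gsto1 ran most like Cldn23 (Pearson r = 0.993), a claudin of tight junctions, and Cd24a (r = 0.993), a surface glycoprotein, and Mgst3 like Ildr1 (r = 0.979), a protein of tricellular junctions, and Card14 (r = 0.978), a signalling scaffold of keratinocytes. Mgst1 ran most like Steap1 (r = 0.964), a metalloreductase, and Ephx2 (r = 0.960), the soluble epoxide hydrolase. Gstt3 ran most like Pmm1 (r = 0.914) and the sulfotransferase Sult1c1 (r = 0.914), and Gstt1 like Mageh1 (r = 0.910) and Elovl4 (r = 0.909), the elongase of very long chain fatty acids. These libraries share the treatment and the tissue makeup, and no test was made.

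The summed photoreceptor markers had lower medians in Nrf2 eyes. Rod markers had a lowest, median and highest summed level of 24.8, 129 and 602 CPM in control eyes and 8.0, 10.9 and 115 CPM in Nrf2 eyes, and cone markers 43.4, 338 and 1066 CPM against 18.9, 32.2 and 106 CPM. Of the 9 cone markers 2 passed the test, both lower, Opn1sw and Gnat2, and of the 9 rod markers none, beside 0.491% of all genes tested called lower. In the lists of inner retina, Müller glia, endothelium, immune cells, fibroblasts, melanocytes, skeletal muscle and blood no tested gene passed, beside 3.43% of all genes tested in either direction.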
